A study of Mus musculus with 6 samples.

Results

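Potassium channel genes were followed in whole uteri of mice with and without SOX17 in the uterine epithelium, at gestation day (GD) 3.5. The genes were all those with a symbol that starts with Kcn. Of 98 such genes in the gene table, 96 had a probe on the array, against 20145 genes with a named probe in all. Kcnd3os and Kcnmb4os2 had none.

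RNA came from the uteri of 3 Sox17 f/f and of 3 Sox17 ed/ed females, and each uterus had its own Agilent G3 Mouse GE array, with 1 colour and 6 arrays in all. Females were mated at 8 to 10 weeks of age in natural pregnancies, and embryos were flushed out before the uteri were frozen. Both genotypes carried floxed Sox17 alleles. Sox17 ed/ed mice, labelled LtfiCre/+ Sox17 f/f, also carried 1 copy of an iCre gene at the lactoferrin (Ltf) locus, which is active in the uterine epithelium from puberty, and their Sox17 f/f littermates carried no Cre. The Cre copy and the loss of Sox17 therefore cannot be told apart, and SOX17 in endothelial cells of the stroma is outside the reach of this Cre. Whole tissue was measured, so fewer cells of a type and less RNA per cell cannot be told apart. The 6 arrays shared 1 slide and 1 scan, with the genotypes in separate rows of the slide, so slide row and genotype cannot be told apart either.

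Potassium channels let potassium ions leave or enter cells along their gradient and so set the membrane potential. In smooth muscle of the uterus they hold the membrane at rest and end contractions, and in epithelia they recycle the potassium that the sodium pump brings in, which keeps up the driving force for fluid and chloride transport. Voltage-gated channels are built from pore subunits, silent subunits that join other pore subunits, and accessory subunits that set their gating. Inward rectifiers and 2-pore-domain channels carry resting currents, and a further class opens with internal calcium or sodium.

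Values are log2 of the processed signal of a probe, quantile normalized between the arrays, and the brightest probe stood for a gene. A probe was tested where at least 3 of 6 arrays put it well above background. Sox17 itself, the check of the labels, read 12.21, 12.07 and 12.22 in the Sox17 f/f uteri and 9.75, 9.59 and 9.81 in the Sox17 ed/ed uteri. The genotypes lay apart, with a log2 fold change of -2.45 (SE 0.09, limma adjusted p = 2.66e-05). Where the probe lies relative to the floxed part of the gene was not examined. Spots well above background made up from 60.7% to 65.7% of a Sox17 f/f array and from 56.8% to 59.4% of a Sox17 ed/ed array, and the part of this in the results was not tested. Normalized signals of 2 arrays correlated at 0.99 to 0.995 within a genotype and 0.963 to 0.965 between genotypes.

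Of the 96 potassium channel genes, 57 (59.4%) were tested, against 73.7% of all named genes. A gene was called where the unadjusted p was under 0.01 and the fold change at least 1.4, which are the thresholds of the study's methods. The p-values measure the spread between 3 uteri of each genotype, and with 3 against 3 arrays the smallest p of an exact permutation test for any gene is 0.1. At those thresholds 8 of the 57 genes (14.0%) differed, and the share over all 14847 genes tested was 12.5%. Kcnq1, Kcnn2 and Kcnh3 rose, which is 3 genes or 5.26%, against 6.04% of all genes. Kcnc4, Kcne3, Kcnma1, Kcnd3 and Kcnk7 fell, which is 5 genes or 8.77%, against 6.47% of all genes. All 8 also had a limma adjusted p under 0.05.

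The shares of potassium channel genes that differed were thus close to those of the array as a whole. An adjusted p under 0.05 was reached by 10 of the 57 (17.5%, against 18.9% of all genes), 3 higher and 7 lower in Sox17 ed/ed. The arrays of the genotypes did not overlap for 22 genes (38.6%, against 40.6% of all genes). The median log2 fold change was -0.14 over the 57 genes and -0.0016 over all genes, with 24 values above and 33 below 0. Of the 49 genes that were not called, 42 had fold changes under 1.4 and the other 7 had an unadjusted p of 0.01 or more. The precision was enough to bound the brightest probe of 9 genes within 1.4-fold in either direction by its 95% interval. Among them were Kcna4, Kcna7, Kcnab1, Kcnd1, Kcnh4, Kcnip3, Kcnk6 and Kcns3. A second, dimmer Kcna7 probe was less precise, at -0.27 (SE 0.35).

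**Figure D1:**
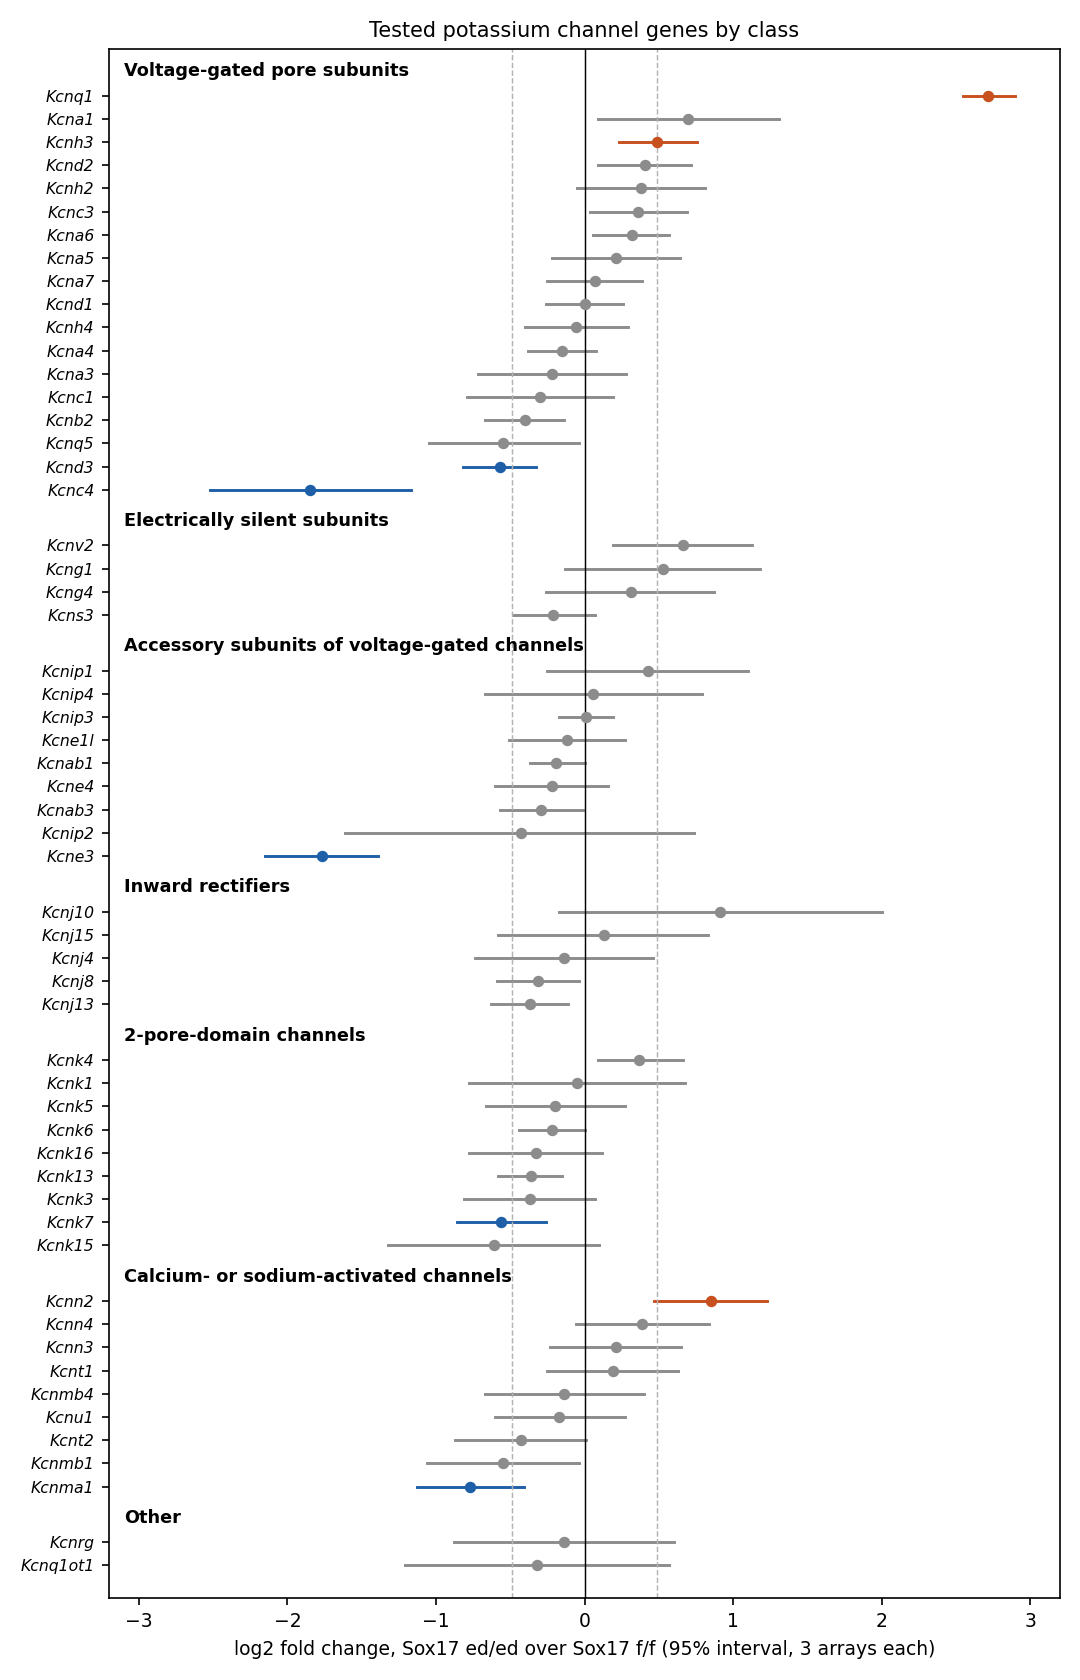
Log2 fold change of Sox17 ed/ed over Sox17 f/f (horizontal axis) for all but 1 of the 57 tested potassium channel genes, grouped by class, with 95% intervals from limma on 3 arrays per genotype (Kcnh3 and Kcnn3 on 5 arrays). Orange genes rose and blue genes fell past the thresholds, grey genes were not called, and dashed lines mark a fold change of 1.4; Kcnq1 at 2.72 and Kcnc4 and Kcne3 at -1.85 and -1.77 stand farthest from 0.

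Kcnq1, the pore subunit of a slowly opening channel of heart and epithelia, had the largest change of the class and of all potassium channel genes tested. Its log2 signal was 7.49, 7.40 and 7.36 in the Sox17 f/f uteri and 10.22, 10.07 and 10.11 in the Sox17 ed/ed uteri. The values within each genotype were close together and the genotypes were far apart. Kcnq1 thus had a log2 fold change of 2.72 (SE 0.07, limma adjusted p = 1.16e-05), a 6.59-fold higher signal.

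The voltage-gated pore subunits, Kcnq1 included, had 30 genes with a probe and 19 tested genes, of which 2 rose and 2 fell (6.04% and 6.47% of all genes did), and the class median of the log2 fold change was 0.05. Kcnc4, a subunit of channels that open and inactivate fast, read 6.86, 6.38 and 7.16 in Sox17 f/f and 4.86, 4.56 and 5.43 in Sox17 ed/ed. Every Sox17 ed/ed value lay below every Sox17 f/f value, although the 3 values of each genotype were widely spread. Its log2 fold change was -1.85 (SE 0.28, limma adjusted p = 0.00676). With normexp background correction, which adds an offset and so shrinks changes of dim probes, it was -0.94 and remained called.

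Kcnd3, a pore subunit of the transient outward current of heart and smooth muscle, fell from 11.71, 11.95 and 11.74 to 11.09, 11.33 and 11.26. The groups did not overlap, with a log2 fold change of -0.57 (SE 0.10, limma adjusted p = 0.012). A second Kcnd3 probe, for another transcript, read 5.54, 5.99 and 5.95 in Sox17 f/f and 4.41, 4.83 and 5.23 in Sox17 ed/ed. This probe had a log2 fold change of -1.0 (limma adjusted p = 0.0324 over probes), the same direction as the first. The related pore subunits Kcnd2 and Kcnd1 were not called, with log2 fold changes of 0.41 (SE 0.13) and 0.00 (SE 0.11).

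Kcnh3, a pore subunit best known from neurons, rested on 5 arrays. Its log2 signal was 8.54 and 8.61 in 2 Sox17 f/f uteri and 8.96, 9.02 and 9.22 in the Sox17 ed/ed uteri. The scanner software had marked the single Kcnh3 spot of Sox17 f/f replicate 3 as an outlier, and it was left out. In the deposited values that spot stood at 23355 on the linear scale, against 353 and 405 in the other Sox17 f/f uteri and values from 484 to 600 in Sox17 ed/ed uteri. Without it the log2 fold change was 0.49 (SE 0.10, limma adjusted p = 0.0304), just at the fold threshold, and with it -1.47 and not called. The call was lost in 7 of 15 alternatives. Kcnb2, a delayed rectifier subunit, passed the adjusted p of limma but not the fold threshold. It read 5.41, 5.27 and 5.23 in Sox17 f/f and 4.71, 4.93 and 5.06 in Sox17 ed/ed, a log2 fold change of -0.40 (SE 0.11, limma adjusted p = 0.048). In most alternatives the adjusted p of Kcnb2 was over 0.05. It was, for example, 0.187 by limma with normexp and 0.0435 by limma with the deposited values. Kcna1, a shaker-type subunit of axons, had a log2 fold change of 0.70 (SE 0.25) with overlapping groups, and was called only without Sox17 f/f replicate 2, at 0.94. Both tested probes of Kcna5, a delayed rectifier subunit of heart and vessels, missed the thresholds, at 0.21 (SE 0.18) for the brighter and 0.87 (SE 0.28) for the other.

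**Figure D2:**
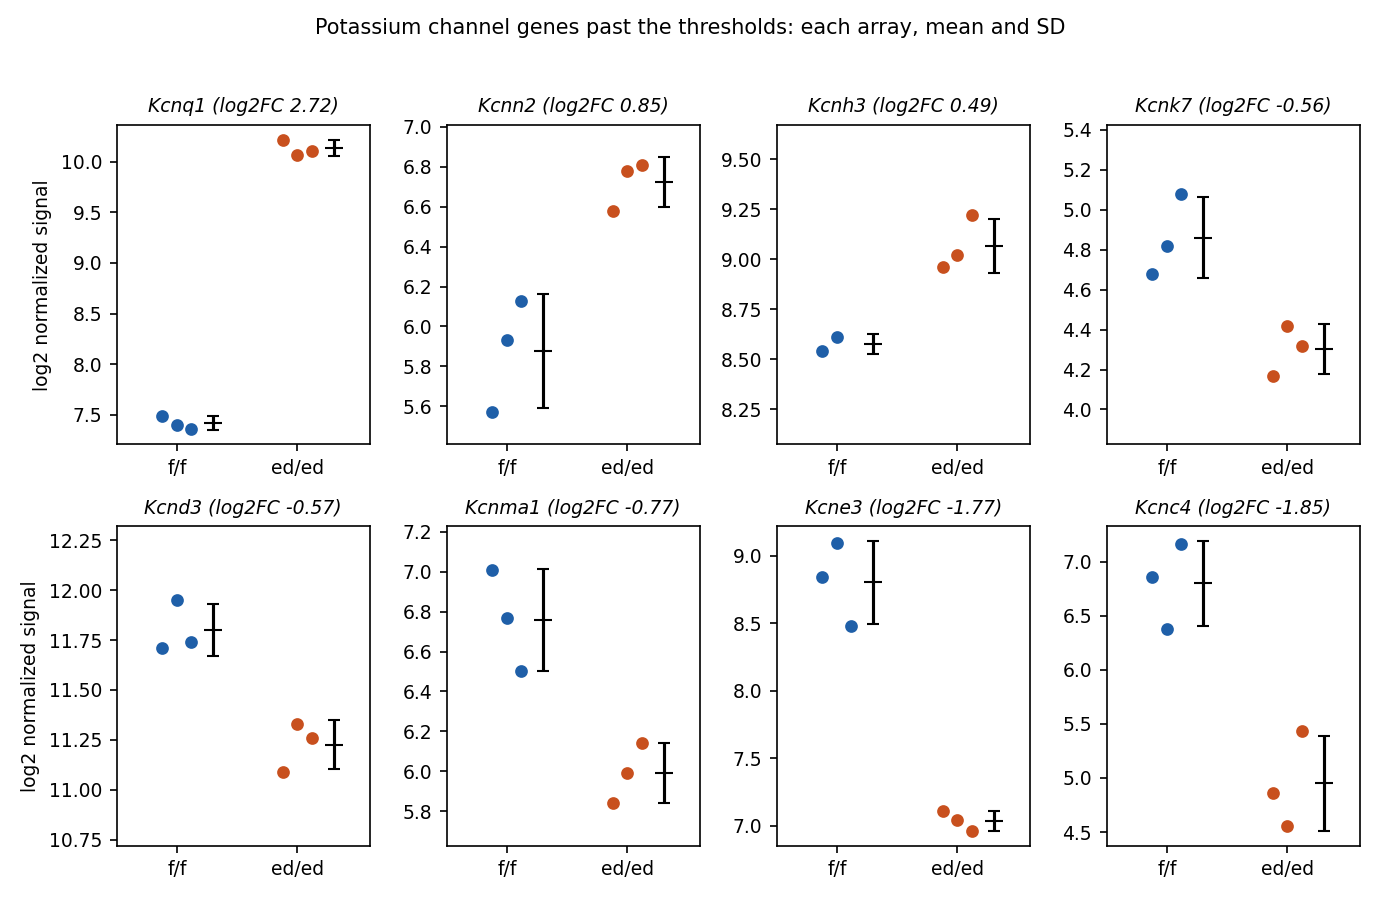
Log2 normalized signal (vertical axis, a scale of its own in each panel) of the 8 potassium channel genes past the thresholds in each Sox17 f/f (blue) and Sox17 ed/ed (orange) uterus, with the mean and SD in black. The genotypes did not overlap in any panel; Kcnh3 has 2 Sox17 f/f points because 1 spot was left out.

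Of the accessory subunits of voltage-gated channels, 9 of 12 genes were tested and only Kcne3 passed the thresholds, as did 12.5% of all genes. KCNE3 joins KCNQ1 in epithelia such as the colon and airway and keeps that channel open, so that it carries potassium while chloride is secreted. The Kcne3 signal was 8.84, 9.09 and 8.48 in Sox17 f/f and 7.11, 7.04 and 6.96 in Sox17 ed/ed. The Sox17 ed/ed uteri were all low and close together, while the Sox17 f/f uteri were all higher and more spread. The log2 fold change was -1.77 (SE 0.16, limma adjusted p = 0.000768), a 3.41-fold lower signal. A second probe for another Kcne3 transcript read 8.77, 8.94 and 8.32 against 7.02, 6.87 and 7.03, with a log2 fold change of -1.71. Of this pair of partners, Kcnq1 was thus higher and Kcne3 lower in the Sox17 ed/ed uteri.

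No other KCNE subunit was called. Kcne4 had a log2 fold change of -0.22 (95% interval -0.60 to 0.16) and Kcne1l of -0.12 (95% interval -0.51 to 0.27). Their second, dimmer probes had the opposite sign, at 0.34 (SE 0.27) for Kcne4 and 0.35 (SE 0.21) for Kcne1l, and were not called. Kcne1, the partner of KCNQ1 in the heart, and Kcne2, its partner in the stomach, were well above background on no array. The class median was -0.19, and its other members ran from Kcnip2 at -0.43 (SE 0.48) to Kcnip1 at 0.43 (SE 0.28).

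The 250 bases before the start of transcription are shown for the 3 genes that fell and kept their call under all 16 processing alternatives, as sequence context for these changes. RefSeq windows on GRCm38.p6 were used for 42 of the 57 tested genes and for 5 of the 8 called genes, without Kcnq1, Kcnn2 and Kcnh3. Each is written 5′ to 3′ on the strand of the gene, and capitals mark the letters of a motif.
Kcne3 first start (chr7:100176420-100176669, plus strand): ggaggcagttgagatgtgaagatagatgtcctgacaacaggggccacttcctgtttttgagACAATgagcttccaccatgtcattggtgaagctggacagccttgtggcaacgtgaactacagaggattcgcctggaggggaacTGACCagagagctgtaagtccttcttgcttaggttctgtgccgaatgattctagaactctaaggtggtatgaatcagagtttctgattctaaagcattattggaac
Kcne3 second start (chr7:100178433-100178682, plus strand): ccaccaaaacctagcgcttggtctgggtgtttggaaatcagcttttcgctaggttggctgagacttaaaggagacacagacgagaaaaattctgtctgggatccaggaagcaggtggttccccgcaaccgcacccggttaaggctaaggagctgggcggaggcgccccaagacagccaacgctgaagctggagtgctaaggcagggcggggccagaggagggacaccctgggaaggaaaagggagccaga
Kcnc4 (chr3:107458899-107459148, minus strand): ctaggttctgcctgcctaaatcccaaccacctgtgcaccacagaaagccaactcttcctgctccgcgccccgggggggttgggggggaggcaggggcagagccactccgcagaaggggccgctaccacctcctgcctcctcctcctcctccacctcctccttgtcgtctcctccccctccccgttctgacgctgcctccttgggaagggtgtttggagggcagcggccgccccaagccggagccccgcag
Kcnd3 (chr3:105451640-105451889, plus strand): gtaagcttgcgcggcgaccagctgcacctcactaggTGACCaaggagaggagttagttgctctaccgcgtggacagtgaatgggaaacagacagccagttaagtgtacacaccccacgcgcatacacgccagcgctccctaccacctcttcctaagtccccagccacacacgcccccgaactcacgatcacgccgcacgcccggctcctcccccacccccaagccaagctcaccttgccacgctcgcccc
Motifs were sought on both strands as exact letters, ACAAT or ATTGT for the SOX core, GGTCA or TGACC for an estrogen response element half-site, TGTTTAC or GTAAACA for FOX factors and AGATAA or TTATCT for GATA factors. None of these letter strings overlapped in the windows shown.

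A SOX core match stood in 1 of the 6 windows of the called genes, the window of the first Kcne3 start, at 189 bases before it. The same letters occur in 27.7% of the 32851 RefSeq promoter windows of this length and in 12 of the 52 windows of tested potassium channel genes. A half-site match was found 106 bases before the first Kcne3 start and 214 bases before the Kcnd3 start, that is in 2 of the 6 windows, against 35.2% of all windows and 12 of the 52. The FOX letters were in none of the 52 windows (3.17% of all windows), and the GATA letters in 2 of the 52 (9.99% of all windows) and none of the 6. Kcnc4 and the second Kcne3 start held no match. A match of letters is not a measured binding site.

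The electrically silent subunits, which change the gating of other pore subunits, held 10 genes with a probe, 4 of them tested and none called, against 12.5% of all genes. The smallest p was that of Kcnv2, a modifier of delayed rectifiers in photoreceptors. Its signal was 5.63, 5.26 and 5.16 in Sox17 f/f and 5.72, 6.34 and 5.95 in Sox17 ed/ed. The groups did not overlap, but the log2 fold change of 0.66 (SE 0.19, limma adjusted p = 0.0654) missed the p threshold, and it was called only without Sox17 f/f replicate 1 or without Sox17 ed/ed replicate 1, at 0.79 each time. Kcng1, another modifier of the same pore subunits, had overlapping groups and a log2 fold change of 0.53 (SE 0.27).

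No inward rectifier was called among 5 tested of 15 genes (12.5% of all genes were), and the class median was -0.14. Kcnj13, a channel of transporting epithelia and of uterine muscle in pregnancy, read 7.13, 6.84 and 7.13 in Sox17 f/f and 6.64, 6.57 and 6.78 in Sox17 ed/ed. The log2 fold change was -0.37 (SE 0.11, limma adjusted p = 0.0632), and that of a second probe 0.00 (SE 0.12). Kcnj8, the pore of ATP-sensitive channels in vascular muscle, had a log2 fold change of -0.31 (SE 0.11, limma adjusted p = 0.109). Its regulatory subunit Abcc9 stood at -0.12 (SE 0.12). Kcnj10 had the largest value of any gene not called, 0.91, but an SE of 0.45 and overlapping groups.

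Among the 2-pore-domain channels, which carry leak currents, 9 of 14 genes were tested, 8 with a log2 fold change below 0 and a class median of -0.33, and Kcnk7 alone was called, against 12.5% of all genes. Kcnk7, a member not known to carry a current alone, was dim, at 4.68, 4.82 and 5.08 in Sox17 f/f and 4.17, 4.42 and 4.32 in Sox17 ed/ed. In Sox17 f/f all 3 arrays put it well above background, in Sox17 ed/ed 2 of 3 did. The log2 fold change of -0.56 (SE 0.12, limma adjusted p = 0.0266) lost its call in 8 of 15 alternatives, with -0.17 under normexp. Kcnk13, a leak channel of microglia and other cells, read 7.39, 7.57 and 7.32 in Sox17 f/f and 7.05, 7.01 and 7.13 in Sox17 ed/ed. The groups did not overlap, and the log2 fold change of -0.36 (SE 0.09, limma adjusted p = 0.0349) was under the fold threshold. Kcnk4, a mechanically gated member, was the exception to the negative values, at 0.37 (SE 0.12), and was not called.

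Calcium- or sodium-activated channels gave 9 tested genes of 12, with Kcnn2 higher and Kcnma1 lower, that is 2 called, against 12.5% of all genes. Kcnma1, the pore of the large-conductance calcium-activated (BK) channel that relaxes uterine smooth muscle, read 7.01, 6.77 and 6.50 in Sox17 f/f and 5.84, 5.99 and 6.14 in Sox17 ed/ed. The groups did not overlap, and the nearest values were 6.50 and 6.14. The log2 fold change was -0.77 (SE 0.15, limma adjusted p = 0.0171), and the call was lost with normexp, at -0.40, and with a linear model without moderation.

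The subunits that join the BK pore differed in the sign of their values. Kcnmb1, the beta subunit of smooth muscle, read 7.72, 7.69 and 7.62 in Sox17 f/f and 6.73, 7.06 and 7.59 in Sox17 ed/ed. Sox17 ed/ed replicate 3 lay next to the Sox17 f/f values, and the log2 fold change of -0.55 (SE 0.21, limma adjusted p = 0.124) was not called. Without that replicate it was called at -0.78. Kcnmb4, the beta subunit of neurons, had a log2 fold change of -0.14 (SE 0.22), and Lrrc26, a gamma subunit of secretory epithelia that lets BK channels open at resting voltage, rose, with the values given among the partner genes.

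Kcnn2, a small-conductance channel gated by calcium through calmodulin, read 5.57, 5.93 and 6.13 in Sox17 f/f and 6.58, 6.78 and 6.81 in Sox17 ed/ed. All Sox17 ed/ed values were higher, with a log2 fold change of 0.85 (SE 0.16, limma adjusted p = 0.014), or 0.49 under normexp, where it was still called. Its relatives Kcnn3 and Kcnn4 were not called. Kcnn4, an intermediate-conductance channel, had a log2 fold change of 0.39 (SE 0.19). Kcnn3, a member known from uterine and vascular tissue, also rested on 5 arrays, at 0.21 (SE 0.17), because its spot on Sox17 f/f replicate 3 was marked as an outlier. The deposited value of that spot was 34836, against 318 and 329 on the other Sox17 f/f arrays, and with it the log2 fold change was -2.01 and not called. A second Kcnn3 probe had a log2 fold change of -0.06 (SE 0.13).

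In the last group of 3 genes, 2 were tested and none was called, against 12.5% of all genes. Kcnq1ot1, a noncoding RNA transcribed from the opposite strand within Kcnq1 that silences neighbouring imprinted genes, read 11.48, 11.51 and 10.39 in Sox17 f/f and 11.29, 10.76 and 10.39 in Sox17 ed/ed. The genotypes overlapped, and the log2 fold change was -0.32 (SE 0.37), with a 95% interval from -1.21 to 0.57 that does not reach the Kcnq1 value of 2.72. A second probe of this RNA stood at -0.29 (SE 0.11) and was not called either. Kcnrg, thought to regulate assembly of voltage-gated channels, had a log2 fold change of -0.14 (SE 0.31), and the sign turned without Sox17 f/f replicate 1 (0.02) or replicate 2 (0.06).

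The 39 potassium channel genes that were not tested were mostly not detected on these arrays. Of them 28 were well above background on no array, 9 on 1 array and 2, Kcng2 and Kcnj11, on 2 arrays, all of these Sox17 f/f. No probe was above background on every array of a genotype and on none of the other.

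Genes that work with potassium channels were taken from a list of 44 auxiliary subunits, pumps, cotransporters, pacemaker channels and regulators. Of 34 tested, 4 rose (6.04% of all genes did) and 3 fell (6.47% of all genes did), and the median log2 fold change was 0.06. Of the 3, Slc12a3 had entered the test through its Sox17 f/f signal alone. Lrrc26 had the largest change, from 5.60, 5.42 and 6.17 in Sox17 f/f to 10.38, 10.21 and 10.48 in Sox17 ed/ed. Its log2 fold change was 4.62 (SE 0.20, limma adjusted p = 4.90e-05), and lay between 3.67 and 4.87 in all alternatives. The related gamma subunit Lrrc55 rose from 4.59, 4.61 and 5.48 to 6.29, 6.30 and 5.57. Replicate 3 of each genotype nearly met, and the log2 fold change of 1.16 (SE 0.31, limma adjusted p = 0.0474) lost its call in 9 of 16 alternatives. Lrrc38, a further gamma subunit, stood at 0.03 (SE 0.10).

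Sgk1, a kinase that raises the number of sodium and potassium channels at the surface of epithelial cells, KCNQ1 among its targets, rose from 10.99, 10.85 and 10.60 to 12.71, 12.19 and 12.58. Sgk1 had a log2 fold change of 1.68 (SE 0.17, limma adjusted p = 0.00124). Its relative Sgk3 stood at 0.14 (SE 0.06). Atp1b1 and Atp1b3, beta subunits of the sodium pump, had log2 fold changes of -0.38 (SE 0.18) and -0.30 (SE 0.06), both under the fold threshold.

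Atp12a, a pump that takes up potassium in exchange for protons, fell from 8.17, 8.49 and 8.03 to 7.38, 7.28 and 7.13. Atp12a had a log2 fold change of -0.97 (SE 0.14, limma adjusted p = 0.00533). Fxyd7, a small regulator of the sodium pump, fell from 6.09, 5.76 and 6.44 to 5.08, 5.31 and 4.94, with a log2 fold change of -0.98 (SE 0.19, limma adjusted p = 0.0164) that was lost with normexp (-0.40) and without moderation. Slc12a3, the thiazide-sensitive sodium chloride cotransporter, read 5.66, 5.24 and 5.30 in Sox17 f/f and in Sox17 ed/ed no array put it well above background. Set against the lowest signal well above background there, it was at least 2.63-fold lower in Sox17 ed/ed. It passed the filter on dim probes only through the genotype where it was high, so this is a description with no test. Slc12a2, the cotransporter that loads epithelial cells with potassium and chloride, had a log2 fold change of -0.45 (SE 0.13) and was not called.

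**Figure D3:**
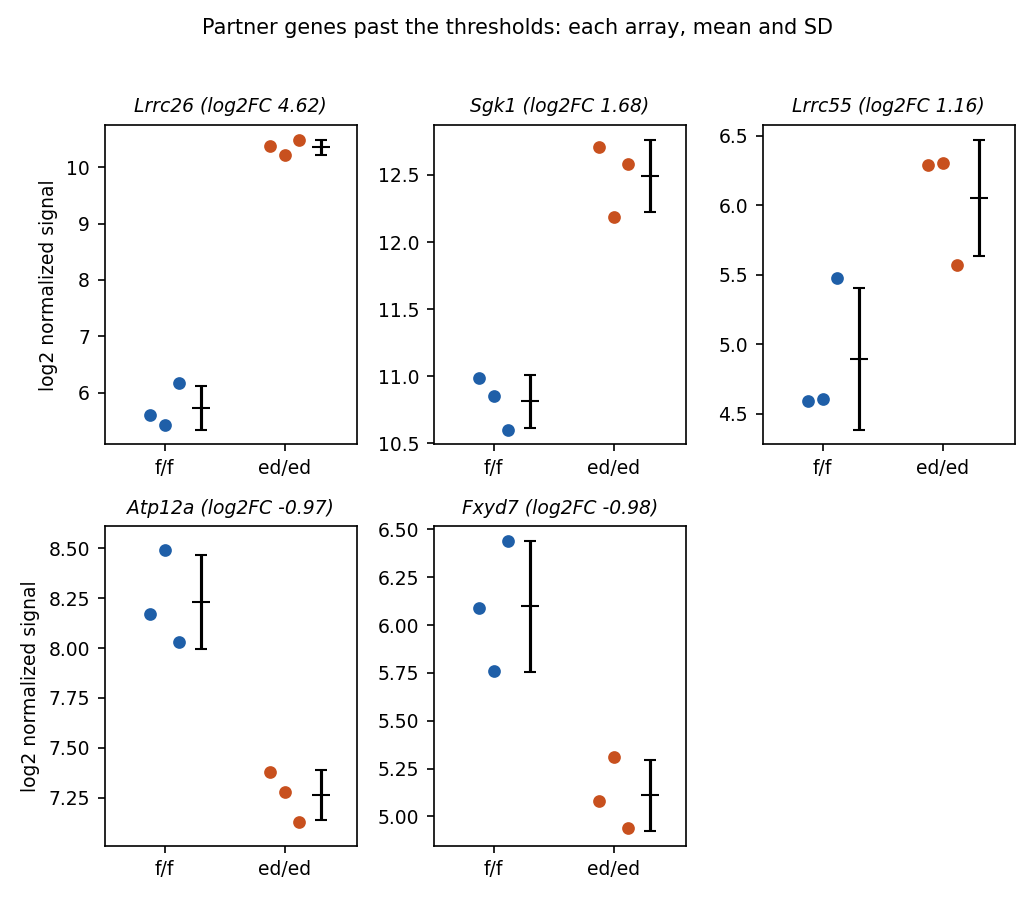
Log2 normalized signal (vertical axis, a scale of its own in each panel) of 5 partner genes past the thresholds in each Sox17 f/f (blue) and Sox17 ed/ed (orange) uterus, with the mean and SD in black. Lrrc26 shows the widest gap, and replicate 3 of each genotype nearly meets for Lrrc55. Slc12a3 is left out because it has only a bound in Sox17 ed/ed.

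Markers of the cell types of the uterus were read on the same arrays, and their counts stand against the 6.04% of all genes that rose and the 6.47% that fell. Of 10 uterine epithelium markers, 5 rose (Cdh1, Krt7, Krt8 and Krt19 among them) and 1 fell (Cldn3), with a median of 0.60, and the mean log2 signal of the list was 10.22 to 10.46 in Sox17 f/f and 10.82 to 11.13 in Sox17 ed/ed. This stood beside the higher Kcnq1, Sgk1 and Lrrc26 and the lower Kcne3, and its part in them was not tested. Of 9 smooth muscle markers only Actg2 was called, with a log2 fold change of -0.64. Actg2 and Cnn1 (-0.48), 2 of the 9, had a limma adjusted p under 0.05, against 18.9% of all genes. In 5 of the 9 (Acta2, Actg2, Cnn1, Des and Tagln), against 40.6% of all genes, the genotypes did not overlap, with Sox17 ed/ed lower. Lmod1, Smtn and Synpo2 had values above 0. The list had a median of -0.28 and mean log2 signals of 13.96 to 14.05 and 13.60 to 14.04. The part of smooth muscle in the lower Kcnma1 and Kcnd3 was not tested. Of 8 endothelium markers, Cldn5 rose and Esam fell past the thresholds, with a median of -0.34. All but Cldn5 had a lower mean in Sox17 ed/ed. A limma adjusted p under 0.05 was reached by 6 of the 8 (18.9% of all genes). The genotypes did not overlap for 7 of them (40.6% of all genes). Mean log2 signals of the list were 11.18 to 11.27 in Sox17 f/f and 10.96 to 11 in Sox17 ed/ed. The part of endothelium in the potassium channel values was not tested. Of 6 tested nerve and Schwann cell markers, Prph and Tubb3 fell, with a median of -0.06 and mean log2 signals of 6.04 to 6.25 and 5.50 to 5.69, beside the lower Kcnc4, and their part was not tested.

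No member was called among 10 stroma markers (median 0.03), 6 tested leukocyte markers (0.09), 2 tested ovary markers (0.06) and 3 tested adipocyte markers (0.95). The adipocyte markers differed in sign, with Adipoq at 0.95 (SE 0.92), Cfd at 1.08 (SE 0.59) and Fabp4 at -0.78 (SE 0.28). Adipoq was well above background on only 1 Sox17 f/f and 2 Sox17 ed/ed arrays. Of 4 tested basal and squamous markers (median 0.32), Krt14 and Trp63 were not called. Krt5 was well above background on 0 Sox17 f/f and 3 Sox17 ed/ed arrays, so it entered the test only through Sox17 ed/ed and its difference is given no test.

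Calls were recomputed under processing alternatives. Kcnq1, Kcne3, Kcnc4, Kcnd3 and Kcnn2, 5 of the 8 called genes, kept their call and direction in all 16 alternatives, and Kcnma1 in 14. Changes of the thresholds are not among the 16, and Kcnn2 (1.8-fold) and Kcnd3 (1.49-fold) were under a fold threshold of 2. Kcnq1, Kcnc4 and Kcnn2 each rested on a single probe, so the alternatives of probe choice could not change their values. Kcnq1 ranged from 2.45 to 2.76, Kcne3 from -1.93 to -1.45, Kcnc4 from -2.08 to -0.94, Kcnn2 from 0.49 to 0.99 and Kcnd3 from -1.0 to -0.49. Normexp gave the smallest changes of Kcnq1, Kcne3, Kcnc4 and Kcnn2. Kcnh3 and Kcnk7 lost their calls in 7 and 8 of 15, and Lrrc55 and Fxyd7 among the partner genes in 9 and 2 of 16.

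**Figure D4:**
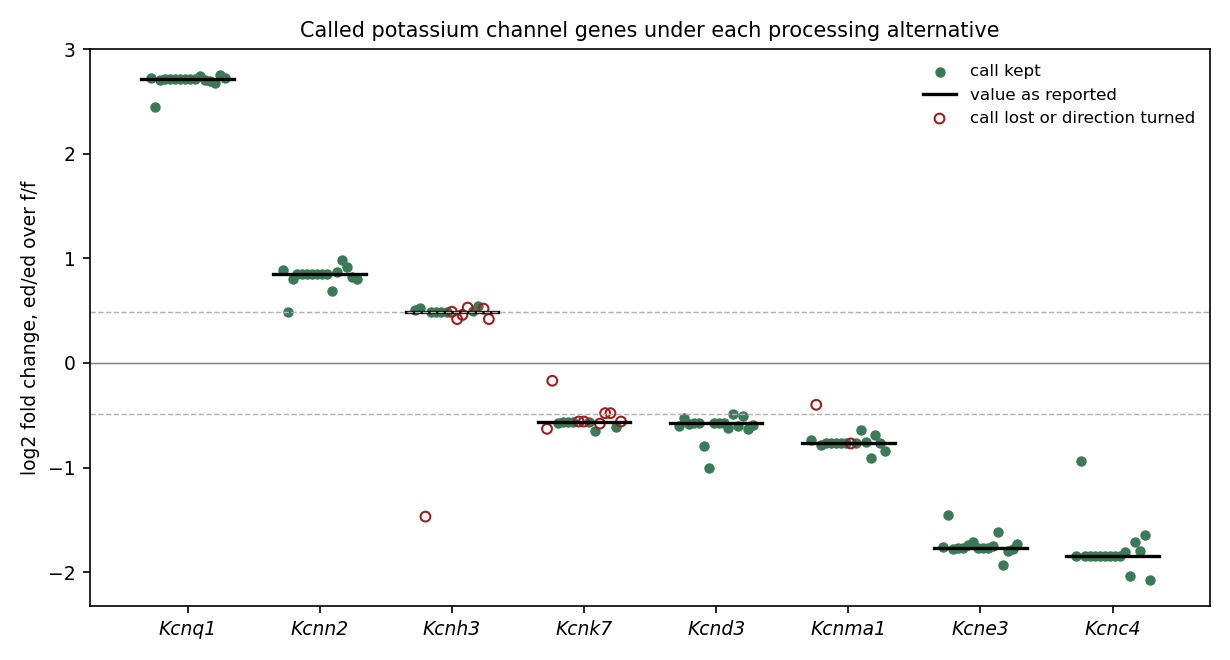
Log2 fold change of Sox17 ed/ed over Sox17 f/f (vertical axis) for the 8 called potassium channel genes under each processing alternative (16, or 15 for Kcnh3 and Kcnk7). Filled green points kept the call, open red points lost it or turned direction, black lines are the values as reported, and dashed lines mark a fold change of 1.4. The open point at -1.47 for Kcnh3 comes from the deposited values, which keep the spot marked as an outlier.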

How the data were processed

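RNA from 6 whole uteri was measured on 1-colour Agilent arrays, 3 per genotype as labelled. For each array the authors deposited the scanner text output, whose headers name Feature Extraction 11.0.1.1 (the submitters' processing notes name Agilent Feature Extraction 9.1), and a table of values. The deposited intensity analysed was the processed signal after background subtraction by that software. The table held the same signal with no normalization between arrays (median differences up to 0.00506%), so low values are uncertain on a log scale. The study's methods name quantile normalization and the thresholds used, but no test. No per-sample column was left unused for want of a sample.

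Control spots (3671 of 62976) and 169 to 302 spots per array marked as outliers were left out, and no spot was saturated. Log2 intensities computed from the deposited signal were quantile normalized, spots of a probe averaged, and genotypes compared by limma 3.58.1 under R 4.3.3 (functions lmFit and eBayes). P-values were adjusted by Benjamini-Hochberg over 14847 genes; tallies and plots used Python 3.11.15, pandas 2.3.3, numpy 2.4.6 and matplotlib 3.10.9. Steps were tested on simulated data. Of 55681 probes, 26582 were named through RefSeq accessions, 16194 carried a genome position and 12905 another identifier. Names come from the GRCm38.p6 gene table; the array design is on mm9.

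Members, classes, partner and marker lists were chosen with earlier results of these data known. Named were all called potassium channel genes, those past only the adjusted p, the 2 smallest p of each class without a call, and called partner genes; the other genes named were picked with their values seen. Some of these genes are counted but not reported here by name. Alternatives changed the normalization, background correction, filter, probe choice, model, replicate block and thresholds, used the deposited table, or left out each array.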

Additional observations from a re-analysis of the deposited data

How the results depend on the processing

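Precision was limited by the 3 arrays per genotype, and values close to background are uncertain on a log scale. The counts of called genes, higher and lower in Sox17 ed/ed, moved by over 1.5 times in these cases. A fold threshold of 2 left 398 higher and 419 lower of all genes, 1 higher and 2 lower potassium channel genes, and 1 lower partner gene (Slc12a3); by class it left 1 higher and 1 lower voltage-gated pore subunit, 0 lower 2-pore-domain channels and 0 higher and 0 lower calcium- or sodium-activated channels. An adjusted p under 0.05 with no fold threshold gave 1496 lower of all genes, 5 lower partner genes and 2 lower 2-pore-domain channels. Normexp background correction gave 3 lower potassium channel genes, with 0 lower 2-pore-domain channels and 0 lower calcium- or sodium-activated channels. The linear model without moderation also gave 3 lower genes, with 1 higher voltage-gated pore subunit and 0 lower in the same 2 classes. With no filter on dim probes, 8 potassium channel genes were lower, 5 of them voltage-gated pore subunits. The 2-pore-domain channels had 0 lower genes with the 75th percentile shift, with the intensity trend and where all 6 arrays had to be well above background, and the voltage-gated pore subunits had 1 higher gene with that filter and with the deposited values. The causes of these changes were not tested.

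Leaving out 1 array at a time gave 2 to 5 higher and 4 to 6 lower potassium channel genes, with the 5 without Sox17 ed/ed replicate 1. By class it gave 1 to 3 higher voltage-gated pore subunits, 0 to 1 higher silent subunits, 0 to 2 lower 2-pore-domain channels (2 without Sox17 f/f replicate 1) and 1 to 2 lower calcium- or sodium-activated channels (2 without Sox17 ed/ed replicate 3). Values of single genes changed sign in 7 of 461 recomputations. With the deposited values, which keep spots marked as outliers, Kcnh3 was -1.47 and Kcnn3 -2.01. Kcnn3 was -0.06 with the second probe and with probes detected on all 6 arrays, and Kcnj13 0.00 with the second probe. Kcnrg was 0.02 and 0.06 without Sox17 f/f replicate 1 and 2 and -0.51 without Sox17 f/f replicate 3.

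The replicate numbers of the genotypes gave no sign of a pairing of the uteri, since deviations of same-numbered arrays correlated at 0.06, -0.11 and 0. With 3 arrays per genotype this cannot exclude a pairing. With the replicate block 2 potassium channel genes were higher and 6 lower, 1 of the higher being a voltage-gated pore subunit, and Kcnh3 stood at 0.42. Normexp was planned on the mean signal, which was not run, and used the median signal in its place, an alternative chosen after seeing the data.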

Other observations

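Single arrays held signals of potassium channel genes that were well above background in no other uterus. Kcnj12, an inward rectifier of muscle, read 8.02 on the log2 scale in Sox17 ed/ed replicate 1 and 1.78 to 2.90 on the other arrays. A probe of Kcnj3, a channel opened by G proteins, read 7.23 in Sox17 ed/ed replicate 3 and 1.86 to 4.14 elsewhere. Kcnk2, a mechanically gated leak channel, read 5.59 in Sox17 f/f replicate 1 and 1.85 to 2.29 elsewhere. These genes entered no comparison, and they were picked with their values seen. The spots of Kcnh3 and Kcnn3 marked as outliers, at 23355 and 34836 in the deposited values, were on the same array, Sox17 f/f replicate 3.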
